A study of Mus musculus with 6 samples.

Results

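The 39 genes described here encode subunits of eIF3, the eIF4 cap-binding and helicase factors, the eIF4E-binding proteins (4E-BPs), the poly(A)-binding partners of these factors and 8 other proteins of translation initiation. They were taken by symbol, by their role in initiation and not by a cut on measured values, though with earlier results of these data known, and all 39 were among the 22219 gene symbols of the deposited table. One of them, Eif4ebp3, had too few reads to be tested, so 38 were tested among 17570 genes. The comparison asked how their mRNA levels differed between testes in which germ cells had lost Eif5 and control testes.

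RNA came from whole mouse testes on day 10, with 3 libraries from controls and 3 from germ cell conditional knockouts of Eif5 (cKO). The knockouts carried Eif5fl/fl, a floxed Eif5 gene, and Stra8-Cre, a Cre driven by the promoter of Stra8, which is active in male germ cells. Somatic cells are not targeted by this driver, and their Eif5 level was not measured apart from that of the germ cells. The labels give no genotype for the controls, no strain and no number of animals per library. What the Cre or the floxed alleles do by themselves cannot be told apart from the loss of Eif5. Since separate animals are not stated, p-values reflect spread between libraries that may be technical.

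In initiation, the eIF4F complex binds the mRNA cap through eIF4E, unwinds the leader with the helicase eIF4A and is held together by the scaffold eIF4G. The scaffold also binds poly(A)-binding protein at the other end of the mRNA and eIF3 on the small ribosomal subunit, where eIF5 acts in start codon choice. The 4E-BPs compete with eIF4G for eIF4E when they are not phosphorylated by the kinase mTOR. Male germ cells are known for making cell-type forms of several of these proteins, mostly at stages later than those of a day 10 testis.

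Values are normalised read counts, that is, reads divided by 1 scaling factor per library, and are listed in the order of replicates 1 to 3. Recovered reads ran from 32555443 to 48409550 per library, and the share from mitochondrially encoded genes from 4.41% to 9.64%. By a chi-square on reads per gene, control replicate 3 was nearer to cKO replicates 1 and 3 (32.1 and 31.8) than to the other controls (54.4 and 57.6), while cKO pairs were at 10.04 to 17.1. For a given relative difference this chi-square grows with the number of reads, so abundant genes and deeper libraries weigh most in it. By the correlation of log2 values every pair within a group (0.986 to 0.988) was closer than any pair between groups (0.978 to 0.982). Without control replicate 3, Eif4g3, Eif5a2 and Denr were still called and Eif4ebp1 was not.

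Eif5 itself, the targeted gene, read 11964, 10551 and 11187 in the controls, against 8548, 8982 and 9574 in cKO. Every cKO library was below every control (log2 fold change -0.31, SE 0.0947, limma adjusted p = 0.024), a call that was lost on leaving out cKO replicate 1 (adjusted p = 0.133) or cKO replicate 2 (adjusted p = 0.0888). The table has 1 value for the whole gene, so exons inside and outside the floxed region are counted together.

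Most of the initiation factor genes differed little between the groups. The scaffold gene Eif4g3, the eIF5A gene Eif5a2 and the reinitiation gene Denr were lower in cKO, each by a log2 fold change of -0.36, and the 4E-BP gene Eif4ebp1 was higher. The other 34 tested members were not called. The 4 calls were 10.5% of the tested members, where 20.0% of all 17570 genes were called (9.63% higher and 10.4% lower) at a limma adjusted p under 0.05. The count called lower was 1 without cKO replicate 2 or without cKO replicate 3. In these 2 fits the genes called lower in the whole table also fell, from 1829 to 1371 and 1281. The median log2 fold change of the members was 0.052, and that of all genes was 0.0070. The log2 fold changes of the 38 ran from -0.36 to 0.42.

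**Figure D1:**
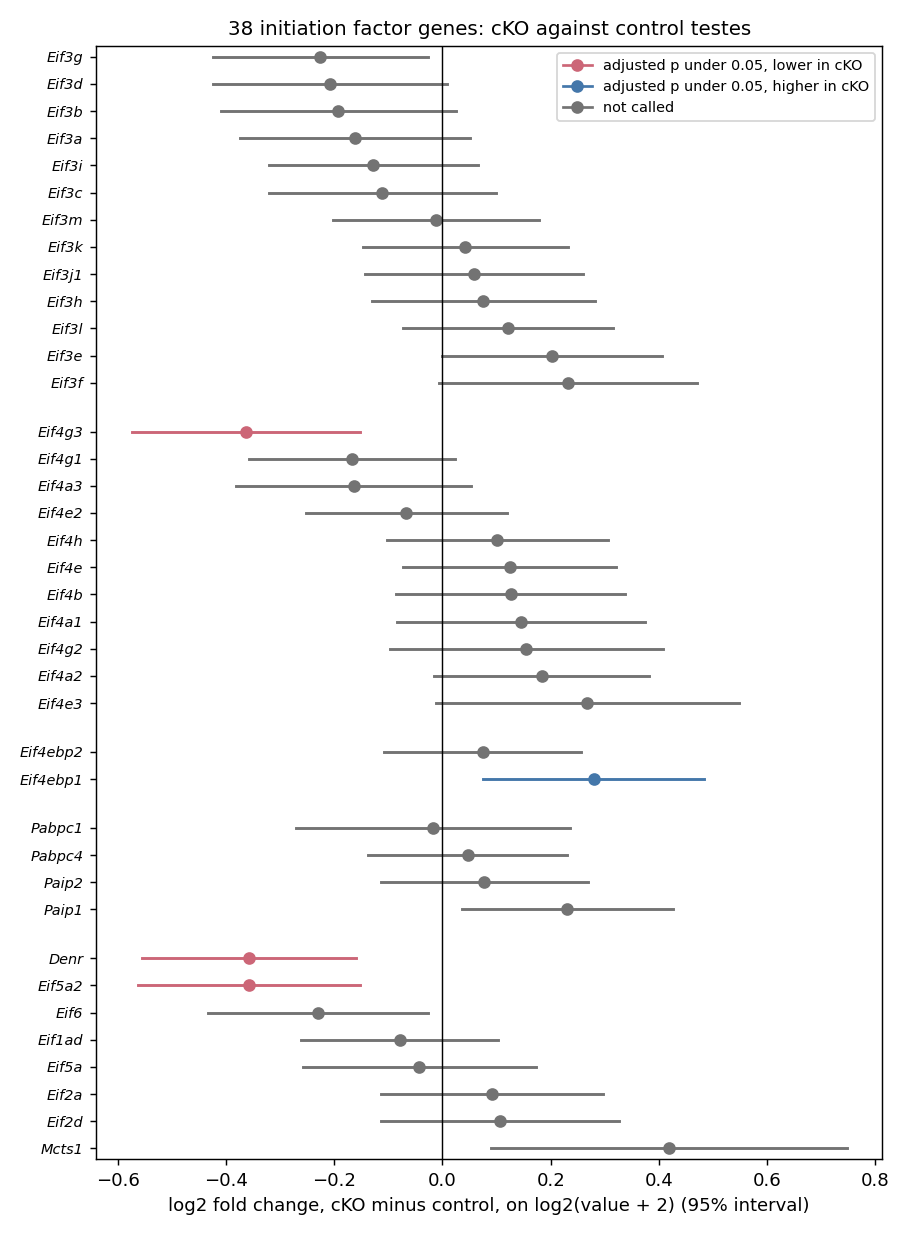
Log2 fold change (cKO minus control, x axis, on the log2(value + 2) scale) with its 95% interval for each of the 38 tested genes, in blocks from top to bottom for eIF3 subunits, eIF4 factors, 4E-BPs, poly(A) partners and other factors. Eif4g3, Denr and Eif5a2 lie to the left near -0.36 and were called lower, Eif4ebp1 at 0.28 was called higher, and the other points are grey.

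Under the deposited scaling, precision was enough to limit the size of most differences. The 95% interval of the log2 fold change, not adjusted for the number of genes, lay between -0.5 and 0.5 for 33 of the 38 members and between -1 and 1 for all 38. The same held for 7581 and 13684 of all 17570 genes. These intervals take the scaling as given. With libraries scaled to an equal summed level of 12 Sertoli markers, Eif3g, Eif3d, Eif3b and Eif3a were at -0.66, -0.64, -0.62 and -0.59. The median gene was then at -0.42. In 14 of the 38 members (36.8%) the groups were apart, with all cKO libraries above the controls in 7 and below in 7. Among all genes 36.7% were apart in this way, 18.3% above and 18.4% below. Fewer cells of a type and less RNA per cell cannot be told apart in whole testes.

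Markers of cell types moved with the groups. Of 10 markers of meiotic prophase 10 were lower (median log2 fold change -1.40), and their summed level was 27882 to 30993 in the controls and 11126 to 12969.5 in cKO. Of 8 markers of differentiating spermatogonia 6 were lower, with sums of 33056 to 34630.1 in the controls and 20770.2 to 23819 in cKO. Undifferentiated spermatogonia had 2 of 8 higher, with sums of 10467 to 13010.2 in the controls and 10331 to 11548 in cKO.

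Markers of somatic cells moved in both directions. Sertoli markers had 7 of 12 higher and 1 lower, with sums of 329339 to 468166 in the controls and 513714 to 586689.9 in cKO, and Leydig markers 6 of 7 higher, with sums of 14228 to 19177 in the controls and 21920.5 to 26088 in cKO. Macrophage markers had 5 of 7 higher. Of these, Cd68, C1qa and C1qc overlapped between groups, and C1qa was called by neither edgeR (adjusted p = 0.0532) nor DESeq2 (adjusted p = 0.0510). Peritubular myoid markers had 2 of 6 lower, endothelial markers 1 of 5 higher and 1 lower, and erythroid markers 2 of 5 higher. Both erythroid calls, Hba-a1 and Hbb-bs, had cKO replicate 1 far above the rest (3248 against 1649.6 and 1132, and 6901 against 2816 and 2822, in cKO replicates 1 to 3). DESeq2 made neither call (adjusted p = 0.151 and 0.25), while edgeR made both (adjusted p = 0.00866 and 0.0205). No listed marker was at 0 in every library, and spermatid markers, of stages rare at this age, summed to 145 to 161 in the controls and 123 to 179 in cKO. Of the 6 listed spermatid markers 4 were tested and none of these was called. The part of these shifts in the falls of Eif4g3, Eif5a2 and Denr and in the rise of Eif4ebp1 was not tested.

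The eIF3 complex is the largest initiation factor and is built on an octamer of subunits a, c, e, f, h, k, l and m, to which b, d, g, i and j attach. Of its 13 genes 0 were called higher and 0 lower by limma, edgeR or DESeq2, with 1 at an unadjusted limma p under 0.05, and the median log2 fold change was -0.012. Of all genes 20.0% were called by limma. All 13 had a 95% interval between -0.5 and 0.5 under the deposited scaling. The 8 genes of the octamer had a median of 0.059 and the 5 others of -0.19.

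Eif3a, the largest subunit and the backbone of the octamer, read 9070.4, 7866 and 6878 in the controls, against 6739, 7329 and 7103 in cKO. The groups overlapped, with control replicate 1 the highest of all 6 libraries (log2 fold change -0.16, 95% interval -0.37 to 0.051, limma adjusted p = 0.285). Eif3c, the subunit that contacts eIF1 and eIF5 in the preinitiation complex, read 4421, 3792 and 3522 in the controls, against 3513, 3966 and 3365 in cKO. Its groups overlapped as well (log2 fold change -0.11, 95% interval -0.32 to 0.10).

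Eif3b, a WD-repeat scaffold of the peripheral module, read 8549, 9373 and 7396 in the controls, against 7654, 7895 and 6567 in cKO. Control replicate 3 fell among the cKO values (log2 fold change -0.19, 95% interval -0.41 to 0.024). Eif3g, an RNA-binding subunit that works in scanning, read 6316, 7018 and 5763 in the controls, against 5635, 5522 and 5133 in cKO. It was the only eIF3 gene with all cKO libraries below all controls, yet it did not pass after adjustment (log2 fold change -0.23, 95% interval -0.42 to -0.027, limma adjusted p = 0.0997). Without control replicate 3 it was called lower (adjusted p = 0.0432), as it was with library totals as the scaling (adjusted p = 0.0377).

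At the other end were Eif3f and Eif3e, which encode an MPN-domain and a PCI-domain subunit of the octamer. Eif3f read 12867, 17342 and 17036 in the controls, against 19216, 17912 and 17902 in cKO, with all cKO libraries above the controls and control replicate 1 far below the rest (log2 fold change 0.23, 95% interval -0.0055 to 0.47, limma adjusted p = 0.16). Eif3e read 7846, 7760.4 and 9192 in the controls, against 9345, 8984 and 10154 in cKO, and control replicate 3 lay among the cKO libraries (log2 fold change 0.20, 95% interval -0.0011 to 0.41). The table also holds a pseudogene of Eif3e, so its reads may have been shared.

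Of the remaining subunits, Eif3d, whose product can bind caps, had a log2 fold change of -0.21 (95% interval -0.42 to 0.0089) and Eif3i, a WD-repeat subunit, one of -0.13 (-0.32 to 0.065). Eif3m was at -0.012, Eif3k at 0.042, Eif3j1 at 0.058, Eif3h at 0.075 and Eif3l at 0.12, all log2 fold changes that did not pass. Eif3l had all 3 cKO libraries (7172, 7143 and 7208) above the controls (7068, 5937 and 6837). Eif3j1 has a near-identical copy, Eif3j2, which read 58.4, 78.4 and 66.5 in the controls, and reads that fit both could have been counted for either.

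**Figure D2:**
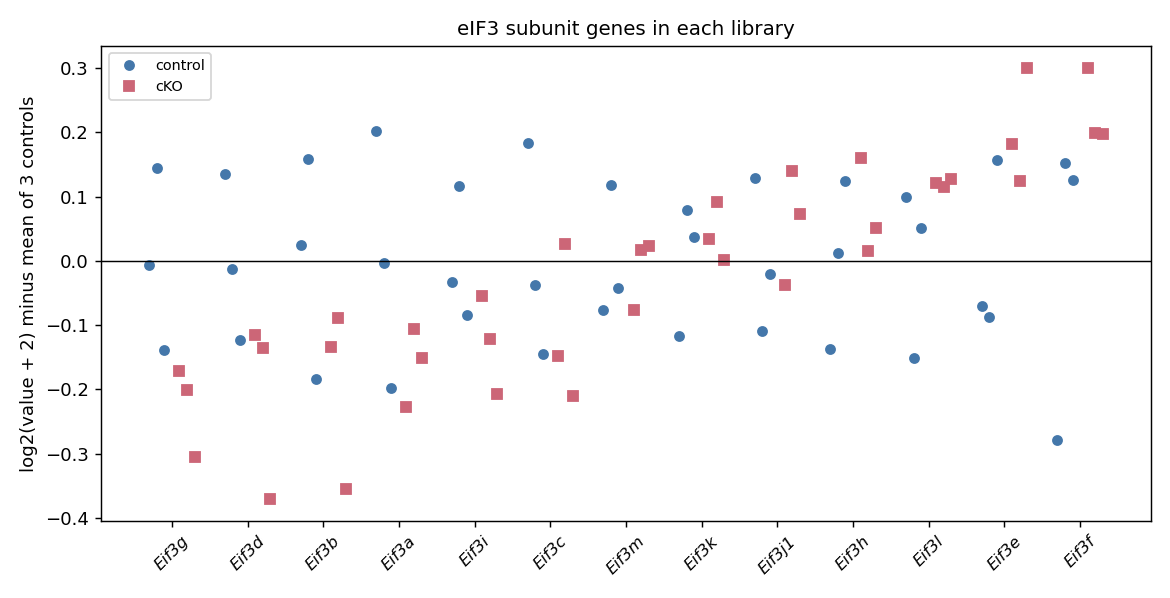
The log2(value + 2) of each eIF3 subunit gene in each library minus the mean of its 3 controls (y axis), with controls as circles and cKO as squares, ordered by fold change. The groups overlap for 10 of the 13 genes, the exceptions being Eif3g (cKO below) and Eif3l and Eif3f (cKO above).

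Several eIF3 mRNAs are known to start with a run of pyrimidines, the TOP motif through which mTOR controls their translation. The 30 bases around the annotated start are shown for the octamer genes Eif3f and Eif3l, both with all cKO libraries above the controls. They are from RefSeq on GRCm38.p6, 5′ to 3′, with the longest run of C and T in capitals.
Eif3f (chr7:108934400-108934429, plus strand): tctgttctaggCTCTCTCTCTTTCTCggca
Eif3l (chr15:79075208-79075237, plus strand): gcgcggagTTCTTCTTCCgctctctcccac
The run was 15 bases long in Eif3f and 10 in Eif3l. Of the 29 members with a RefSeq entry, 4 (13.8%) had a run of at least 10 bases reaching within 10 bases of a start. These were Eif3f, Eif3l, Eif3m and Eif4e. The runs of Eif3f (from -4) and Eif3l (from -7) crossed the annotated start. Those of Eif3m (11 bases from -20) and Eif4e (10 bases from -12, not in every entry) ended before it. They would not be part of an mRNA that begins there, so this is not a count of TOP motifs. The share over all 27025 genes of the promoter table, non-coding ones included, was 8.14%. The data measure mRNA level and not translation, so they do not show how these runs were used.

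Among the 11 eIF4 genes 1 was lower, 0 were higher and 10 were not called, with a median log2 fold change of 0.12. The share called was 9.09%, against 20.0% of all genes. The helicase genes Eif4a1 and Eif4a2 encode near-interchangeable forms of eIF4A. Eif4a1 read 28241, 24454 and 23749 in the controls, against 28768, 29063 and 26546 in cKO (log2 fold change 0.15, 95% interval -0.084 to 0.37). Eif4a2 read 8989.8, 8221 and 8009 in the controls, against 8818, 9521 and 10321 in cKO (log2 fold change 0.18, 95% interval -0.016 to 0.38). In both, control replicate 1 lay within the range of the cKO libraries. Processed copies of Eif4a1 could have taken some of its reads.

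Per kilobase of the longest coding transcript, Eif4a1 made up 82.2% ± 0.472 in the controls and 81.8% ± 1.85 in cKO of the sum of both helicase genes (SD, n = 3 per group). With the median coding transcript as the length the share was 74.6% ± 0.613 in the controls and 74% ± 2.38 in cKO. The log2 ratio of Eif4a1 to Eif4a2 within a library was 1.65, 1.57 and 1.57 in the control libraries and 1.71, 1.61 and 1.36 in the cKO libraries. The difference of -0.038 between group means was smaller than the spread within cKO (exact permutation test, 2-sided, p = 0.9). It turned to 0.061 without cKO replicate 3, the library with the most Eif4a2. Eif4a3, a relative that works in the exon junction complex, had a log2 fold change of -0.16 (-0.38 to 0.053). The helicase cofactors Eif4b and Eif4h were at 0.13 and 0.10, and none of the 3 was called.

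Of the cap-binding genes, Eif4e read 5952, 4968 and 5959 in the controls, against 6213, 6055 and 6063 in cKO. The cKO libraries lay close together and just above the controls, of which control replicate 2 was the lowest (log2 fold change 0.12, 95% interval -0.073 to 0.32, limma adjusted p = 0.387). Eif4e2, a homologue that binds the cap in translational repression, was at -0.067 (-0.25 to 0.12). Eif4e3, a further homologue, was the least expressed tested eIF4 gene per kilobase and read 356, 376 and 390.3 in the controls, against 423, 429 and 504 in cKO. All its cKO libraries were above the controls, without passing (log2 fold change 0.27, 95% interval -0.013 to 0.55, limma adjusted p = 0.171). The log2 ratio of Eif4e to Eif4e3 overlapped between groups (difference -0.14, exact permutation p = 0.4).

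Of the 3 scaffold genes 1 was lower and 2 were not called, too few to set against the 20.0% called of all genes. Eif4g3, which encodes a homologue of eIF4G1 with a known need in male meiosis, read 2171, 2052 and 1754 in the controls, against 1569.6, 1482 and 1576 in cKO. Every cKO library was below every control, and the cKO values were close together. The means were 1993 ± 215 and 1543 ± 52.8 (SD, n = 3 per group; log2 fold change -0.36, SE 0.101, limma adjusted p = 0.0149), a level 0.777 times that of the controls. The fall kept its direction in all 16 other settings and was called in 15, the exception being the fit without cKO replicate 2 (adjusted p = 0.073).

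Eif4g1, the main eIF4F scaffold, read 5844, 5601 and 5252 in the controls, against 5134, 5130.2 and 4603 in cKO. All cKO libraries were below the controls, by less than for Eif4g3 and without passing (log2 fold change -0.17, 95% interval -0.36 to 0.022, limma adjusted p = 0.207). Eif4g2, which encodes DAP5, a scaffold that lacks the eIF4E-binding part, read 47371, 40743 and 44263 in the controls, against 46744, 51802 and 48690.3 in cKO. Control replicate 1 was above cKO replicate 1, so the groups overlapped (log2 fold change 0.15, 95% interval -0.097 to 0.41, limma adjusted p = 0.4).

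Per kilobase of the longest coding transcript, Eif4g2 was the most abundant scaffold mRNA in every library, followed by Eif4g1 and Eif4g3. Eif4g3 made up 3.69%, 3.98% and 3.23% in the control libraries and 2.78%, 2.41% and 2.73% in the cKO libraries of the 3 summed. Eif4g1 made up 14.3%, 15.7% and 13.9% in the control libraries and 13.1%, 12% and 11.5% in the cKO libraries, so both were lower in every cKO library than in any control, while the share of Eif4g2 was 81.7% ± 1.26 in the controls and 85.2% ± 0.902 in cKO (SD, n = 3). The size of these shares depends on the length used. With the median coding transcript, which is 752.5 bases for Eif4g2 in place of 7995, Eif4g2 made up 96.2% ± 0.306 in the controls and 97% ± 0.213 in cKO. Eif4g1 then made up 3.21% ± 0.238 and 2.59% ± 0.196, and Eif4g3 0.619% ± 0.0719 and 0.435% ± 0.0353, with the order of the genes and the separation of the groups as before. The log2 ratio of Eif4g1 to Eif4g2 within a library was -3.02, -2.86 and -3.07 in the control libraries and -3.19, -3.34 and -3.40 in the cKO libraries. The groups did not overlap, and the difference of -0.32 had the smallest p that 3 against 3 libraries allow (exact permutation test, 2-sided, p = 0.1, or 0.4 after Benjamini-Hochberg adjustment over the 8 ratios). The 6 ratios that overlapped between groups had adjusted p-values of 0.533 to 0.9 in the same exact permutation test. The ratio of Eif4g1 to Eif4g3 overlapped between groups (difference 0.20, exact permutation p = 0.2).

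**Figure D3:**
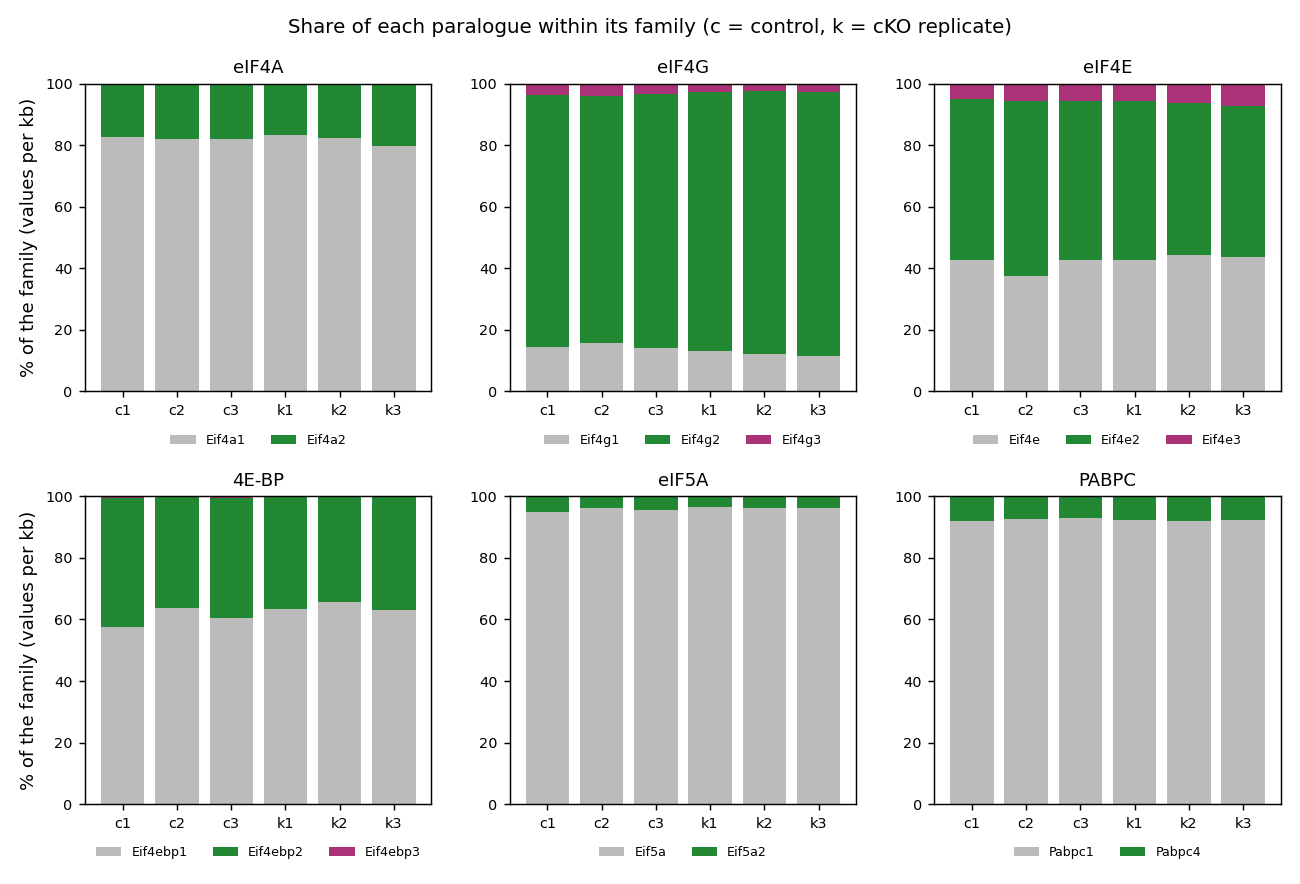
Share of each paralogue in the summed level of its family (y axis, percent, values per kilobase of the longest coding transcript) in control libraries c1 to c3 and cKO libraries k1 to k3. Eif4g2 is above 80% of its family in every library and highest in cKO, Eif5a2 is 3.41% to 5.16% of its family and lowest in cKO, and the eIF4A, 4E-BP and PABPC shares overlap between groups. In the eIF4E family, Eif4e2 is lower and Eif4e3 higher in every cKO library than in any control, while Eif4e overlaps. The sizes of the shares move with the transcript length used. With the median coding transcript, Eif4e3 overlaps between groups and Eif4e is higher in every cKO library than in any control.

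The 150 bases before the annotated start are shown for the 3 genes that fell, Eif4g3, Eif5a2 and Denr, so that their promoters can be compared. They are from RefSeq on GRCm38.p6, 5′ to 3′ along the gene. For Eif4g3, which has a further RefSeq start, only the first listed is shown. Capitals mark matches on either strand to CCGGAAG (bound by ETS factors), CACGTG (the E-box), TGACGTCA (CRE) or TGATGNAA (bound by ATF4 with C/EBP partners).
Eif4g3 (chr4:137993305-137993454, plus strand): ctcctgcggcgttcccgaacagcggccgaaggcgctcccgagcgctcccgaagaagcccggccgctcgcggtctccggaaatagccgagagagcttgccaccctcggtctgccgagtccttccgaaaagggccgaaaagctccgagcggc
Eif5a2 (chr3:28781127-28781276, plus strand): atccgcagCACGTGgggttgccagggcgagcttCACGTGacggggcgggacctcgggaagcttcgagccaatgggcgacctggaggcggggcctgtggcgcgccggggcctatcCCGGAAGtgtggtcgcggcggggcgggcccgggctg
Denr (chr5:123907125-123907274, plus strand): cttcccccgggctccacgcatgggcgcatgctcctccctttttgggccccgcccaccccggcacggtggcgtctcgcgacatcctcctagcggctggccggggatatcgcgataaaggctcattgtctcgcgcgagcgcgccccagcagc
Eif5a2 held 2 E-boxes and an ETS match in this stretch, and the other two held no match. In the full 300-base windows (250 bases before to 50 after the start), 10 of 29 members had the ETS word (34.5%) against 9.93% of all 27025 genes, and 9 had the E-box (31%) against 8.09%. CRE and the ATF4 word were found in 0 of the 29 members, against 2.03% and 4.51% of all genes. Eif4ebp1 was among the 10 members without a RefSeq entry, so its promoter was not searched. The windows of all genes include non-coding genes, and no word of the set contains another. A gene with several annotated starts counted if any of its windows matched, so such genes had more chances of a match. A match is a word in the sequence and was not linked to binding here.

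The 4E-BPs hold eIF4E away from eIF4G. Eif4ebp1, which is also a known target of the stress factor ATF4, read 2744, 3459 and 3163 in the controls, against 3773, 3963 and 3593 in cKO. All cKO libraries were above all controls, and control replicate 1 was the lowest. The means were 3122 ± 359 and 3776 ± 185 (SD, n = 3 per group; log2 fold change 0.28, SE 0.0982, limma adjusted p = 0.0491), a level 1.21 times that of the controls. The call is at the threshold: edgeR did not make it (adjusted p = 0.064) and DESeq2 did (adjusted p = 0.0415). edgeR called 8.96% of all genes higher and 10.6% lower, and DESeq2 10.7% and 11.5%.

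Among the 6 fits that left out 1 library, Eif4ebp1 was called only without control replicate 2 (adjusted p = 0.0217). Its adjusted p was 0.156 without control replicate 1, 0.0675 without control replicate 3, and 0.127, 0.189 and 0.0798 without cKO replicate 1, 2 or 3. With the replicate number as a block it was 0.0522. With libraries scaled to an equal summed level of the 12 Sertoli markers, the log2 fold change was -0.15, against -0.42 for the median gene under that scaling.

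Eif4ebp2, the form known from the brain, read 5760.0, 5667 and 5914 in the controls, against 6266, 5953 and 6041 in cKO. The cKO libraries were again all above the controls, but the difference was small (log2 fold change 0.074, 95% interval -0.11 to 0.26, limma adjusted p = 0.595). Eif4ebp3 read 11.1, 4.35 and 7.63 in the controls, against 3.38, 1.61 and 7.27 in cKO, from 2 to 15 reads per library, and was not tested. The ratio of Eif4ebp1 to Eif4ebp2 within a library overlapped between groups (difference 0.21 on the log2 scale, exact permutation p = 0.3), as did that of Eif4ebp1 to its binding partner Eif4e (difference 0.16, exact permutation p = 0.5). Control replicate 2 lay within the cKO range in the first ratio and above all cKO libraries in the second.

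Poly(A)-binding protein joins the tail of an mRNA to eIF4G. Pabpc1, its main cytoplasmic form, had the highest level per kilobase of all members and read 49338, 54101 and 54334 in the controls, against 53378, 51458 and 50859 in cKO. The groups overlapped and the means were close (log2 fold change -0.018, 95% interval -0.27 to 0.23). Pabpc4, a further cytoplasmic form, read 4657, 4778 and 4453 in the controls, against 4827, 4939.8 and 4581 in cKO (log2 fold change 0.047, 95% interval -0.14 to 0.23). The ratio of these genes did not separate the groups (difference -0.065, exact permutation p = 0.4). Retrogene copies of Pabpc1 in the mouse genome may have shared its reads.

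The partners of poly(A)-binding protein act in opposite ways, Paip1 as a stimulator and Paip2 as an inhibitor of translation. Paip1 read 3304, 3109 and 3177 in the controls, against 3380.1, 3874 and 4029 in cKO. All cKO libraries were above the controls, with replicate 1 the nearest to them, and the difference did not pass (log2 fold change 0.23, 95% interval 0.036 to 0.43, limma adjusted p = 0.0863). Paip2 was at 0.077 (-0.11 to 0.27) with overlapping groups. Of the 4 poly(A) partners 0 were called by limma or edgeR, with 1 at an unadjusted limma p under 0.05.

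Of the 8 other factors 2 were lower and 6 were not called, with a median log2 fold change of -0.061. The 2 calls were 25% of this group, against 20.0% of all genes. Eif5a2 encodes the less widespread form of eIF5A, the hypusine-bearing factor that helps ribosomes through difficult stretches and in termination. It read 4439.8, 3436 and 3883 in the controls, against 3069.5, 3041 and 3021 in cKO. The cKO libraries lay within a narrow range below all controls, while the controls spread widely. The means were 3919 ± 503 and 3044 ± 24.5 (SD, n = 3 per group; log2 fold change -0.36, SE 0.0985, limma adjusted p = 0.0143). The fall kept its direction in all 16 other settings and was called in 14, and it ended without cKO replicate 2 (adjusted p = 0.05004) or cKO replicate 3 (adjusted p = 0.0534).

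Eif5a, the main form, read 23332, 25065 and 24159 in the controls, against 24882, 22979.8 and 22607 in cKO and overlapped between groups (log2 fold change -0.043, 95% interval -0.26 to 0.17). Per kilobase, Eif5a2 made up 5.16%, 3.77% and 4.39% in the control libraries and 3.41%, 3.65% and 3.68% in the cKO libraries of both genes. With the median coding transcript the shares were 3.98% ± 0.626 in the controls and 3.20% ± 0.134 in cKO, again without overlap. The log2 ratio of Eif5a2 to Eif5a was -2.39, -2.87 and -2.64 in the control libraries and -3.02, -2.92 and -2.90 in the cKO libraries, lower in each cKO library than in any control. Its difference of -0.31 had the smallest p the design allows (exact permutation test, 2-sided, p = 0.1, or 0.4 after Benjamini-Hochberg adjustment over the 8 ratios). Eif5a has processed copies in the genome, so part of its reads is uncertain.

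Denr and Mcts1 encode the partners in a heterodimer that recycles small ribosomal subunits and helps reinitiation after short upstream reading frames. Denr read 5468, 6327 and 5143 in the controls, against 4419, 4487 and 4265 in cKO. All cKO libraries were below all controls, of which control replicate 2 was the highest. The means were 5646 ± 612 and 4390.2 ± 114 (SD, n = 3 per group; log2 fold change -0.36, SE 0.095, limma adjusted p = 0.0113), a level 0.78 times that of the controls. The call was made in 14 of 16 other settings and ended without control replicate 2 (adjusted p = 0.0557) or cKO replicate 3 (adjusted p = 0.0588).

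Mcts1, the X-linked partner, read 346, 238 and 274 in the controls, against 412, 381 and 345 in cKO. Its log2 fold change was the highest of the members and did not pass (0.42, 95% interval 0.089 to 0.75, limma adjusted p = 0.0664), with control replicate 1 at the level of cKO replicate 3. Without control replicate 1 it was called higher (adjusted p = 0.0211). The gene has a near-identical retrocopy, Mcts2, so its reads are uncertain. Mcts2 read 385, 380.0 and 434 in the controls, against 336, 304 and 362 in cKO, with a log2 fold change of -0.26 that did not pass. Eif2d, a single-chain relative of the heterodimer, was at 0.11 (-0.11 to 0.33) with overlapping groups.

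Eif6, which keeps the large ribosomal subunit from joining too early, read 2722, 3012 and 2664 in the controls, against 2564, 2458 and 2146 in cKO. The cKO libraries were all below the controls, but the difference did not pass (log2 fold change -0.23, 95% interval -0.43 to -0.027, limma adjusted p = 0.1). With library totals as the scaling it was called lower (adjusted p = 0.0397). Eif1ad, a relative of eIF1A, was at -0.079 and Eif2a, a factor that can bring initiator tRNA to the ribosome without eIF2, at 0.092, both uncalled log2 fold changes.

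**Figure D4:**
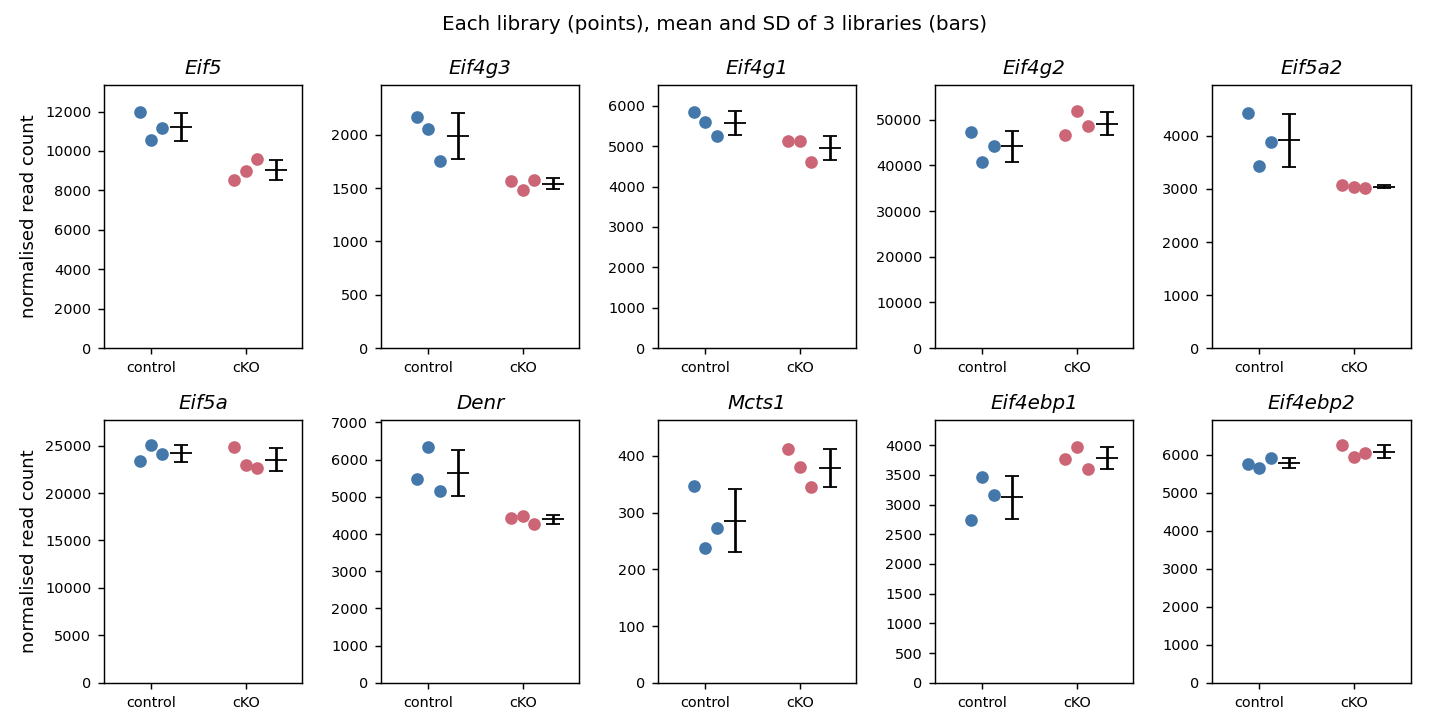
Normalised read counts (y axis, from 0) of Eif5 and 9 members in each library, with points for the 3 libraries of a group and bars for mean and SD. Eif4g3, Eif5a2 and Denr have all cKO points below all control points, Eif4ebp1 has them above, and Eif5a and Eif4g2 overlap.

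The 3 falls were called under each scaling tried, whereas most small differences depended on it. With library totals the log2 fold changes were -0.45 for Eif4g3, -0.44 for Eif5a2 and -0.44 for Denr, and the median gene was at -0.078. Scaled to the summed Sertoli marker list they were -0.79 for each of the 3, and the median gene was at -0.42. Genes called higher and lower over the whole table numbered 1692 and 1829 with the deposited factors, 807 and 2495 with library totals, and 23 and 5135 with the Sertoli list. These were 4.59% and 14.2% of all genes with library totals and 0.131% and 29.2% with the Sertoli list. Members called lower numbered 3, 5 and 16 in the same order. That list is led by Clu, whose own difference was not called (limma adjusted p = 0.217).

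Genes around these factors in the same pathway were taken from a list of 42, of which 41 were in the table and 40 were tested. Of these 1 was higher and 10 were lower, 27.5% in all against 20.0% of all genes, and the median log2 fold change was -0.18. The 29 others were not called. Mknk2, Pdcd4, Abce1, Gigyf2 and Paip2b, outside the 5 largest falls, were lower by log2 fold changes of -0.34 to -0.31.

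The largest fall was in Pabpc6, an intronless poly(A)-binding protein gene, which read 42.9, 45.7 and 50.2 in the controls, against 11.3, 4.82 and 12.1 in cKO. These are low values, similar genes elsewhere could share the reads, and all cKO libraries were below all controls (log2 fold change -2.15, SE 0.432, limma adjusted p = 0.00157). Angel1, which encodes an eIF4E-binding protein, read 1702, 1608 and 1759.8 in the controls, against 996, 1007 and 945 in cKO. All cKO libraries were below all controls and close to each other (log2 fold change -0.78, SE 0.0986, limma adjusted p = 1.41e-05). Gigyf1, whose product works with Eif4e2 in repression, had a log2 fold change of -0.44 (limma adjusted p = 0.00836), and it was not called without control replicate 2 (adjusted p = 0.0501).

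Mtor, the kinase that releases eIF4E from the 4E-BPs, read 7084, 7489 and 6905 in the controls, against 5608, 5455 and 5169 in cKO. It was lower in every cKO library (log2 fold change -0.40, SE 0.0893, limma adjusted p = 0.00345). Dhps, the enzyme that starts hypusine formation on eIF5A, read 2149, 2496 and 2268 in the controls, against 1705, 1879 and 1694 in cKO and was lower as well (log2 fold change -0.39, SE 0.0968, limma adjusted p = 0.00767). Dohh, which completes the modification, was not called (-0.15, 95% interval -0.36 to 0.071).

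The only rise in this list was in Sesn2, an inhibitor of mTOR signalling and a known stress-induced gene, which read 3463, 3701 and 4115 in the controls, against 4806, 4765 and 4483 in cKO (log2 fold change 0.32, SE 0.0929, limma adjusted p = 0.0192). It was not called without cKO replicate 1 (adjusted p = 0.0875) or cKO replicate 2 (adjusted p = 0.0818). It was also lost with library totals (adjusted p = 0.0964), and under the Sertoli scaling the log2 fold change was -0.11. The number of genes of this list called lower was 6 without cKO replicate 1 or without cKO replicate 3. In these 2 fits the genes called lower in the whole table also fell, from 1829 to 1345 and 1281.

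**Figure D5:**
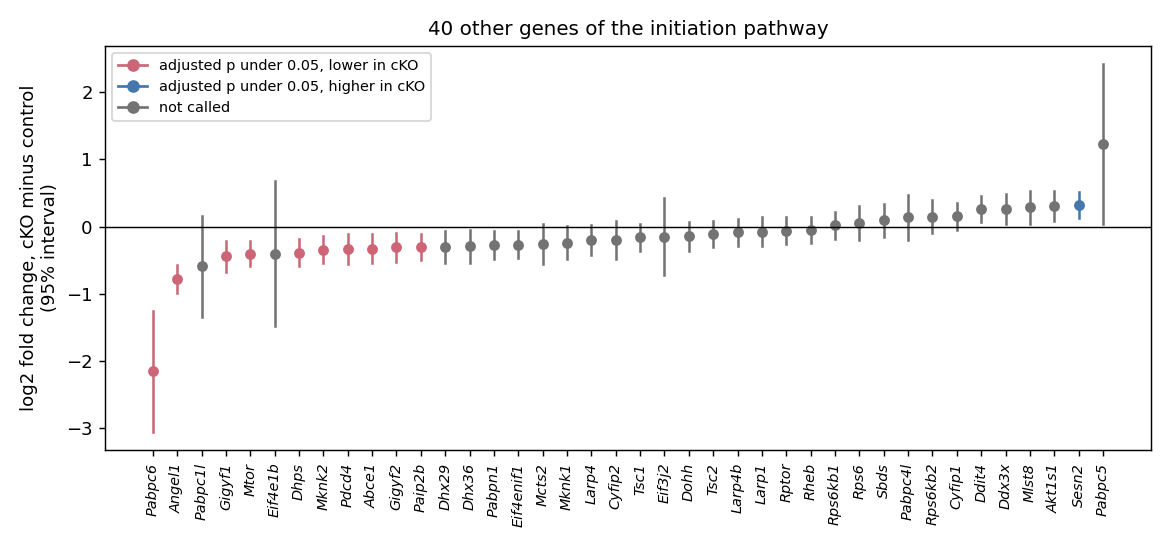
Log2 fold change (cKO minus control, y axis) with its 95% interval for the 40 tested genes of the wider initiation pathway, in order of size. Pabpc6 at -2.15 and Angel1 at -0.78 are the largest called falls, and Sesn2 at 0.32 is the only called rise.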

How the data were processed

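The authors deposited 1 table with a column of values per library. The submitters' processing notes name StringTie 1.3.1 and RSEM without saying what each did. Not given in the sources used here were aligner, build, annotation and strand. The deposited values form a normalised signal: all of them, within a relative tolerance of 1e-06, are whole multiples of 1 step per library, so each is a read count divided by 1 factor (0.825 to 1.35). Of recovered counts of 1 to 20, 75.1% to 80.9% per library were even, so they may count both reads of a pair.

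The test was limma 3.58.1 (eBayes, trend) on log2(value + 2), a scale that understates the change of low genes, for 3 cKO against 3 control libraries. It was fitted on the 17570 genes left by filterByExpr (minimum count 10), with Benjamini-Hochberg adjustment over all of them and a threshold of 0.05. edgeR 4.0.16 and DESeq2 1.42.0 on recovered reads were alternatives, under R 4.3.3. Ratios within a library were tested by exact permutation. The limma and edgeR fits were run on simulated data with planted changes larger than those of the called members. Those runs cannot show how well changes of the members' size are found. Every library pair differed by more than sampling noise. Members, lists and tests were chosen with earlier results of these data known. By rule, values of every library were given for called members and 16 main ones, name and fold change for other members, and, of pathway genes, up to 5 of the largest calls in each direction. Library values of other members and all other named pathway genes were added after their values were seen. Levels per kilobase used GENCODE M21 (longest coding transcript). With the median transcript the order of Eif4e and Eif4e2 and that of Eif4ebp1 and Eif4ebp2 turned, so no order is given for them. Shares within families were recomputed with it, an alternative chosen after seeing the data. RefSeq held promoters of 29 of the 39 members. The table's build is unknown, so coordinates are given for RefSeq sequences only.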

Additional observations from a re-analysis of the deposited data

How the results depend on the processing

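Over 16 other settings the members called lower numbered 3 except with library totals (5), with the Sertoli list scaling (16) and without single libraries (1 to 4, the 1 without cKO replicate 2 or 3). The number of members called higher, 1 in the main fit (Eif4ebp1), became 0 with a pseudocount of 0.5, no filter, TMM, library totals, the Sertoli list, edgeR or the replicate block, and was 0 to 1 without single libraries. The member called higher was Mcts1 without control replicate 1 and Eif4ebp1 without control replicate 2. The median log2 fold change moved to -0.034 (library totals) and -0.38 (Sertoli list) for the members, -0.098 and -0.44 for eIF3 and 0.038 and -0.31 for eIF4, and without single libraries it ranged from 0.020 to 0.056, -0.033 to 0.020 and 0.060 to 0.15. Pathway genes called higher numbered 2 with a pseudocount of 8 or a minimum count of 30, 0 with library totals or the Sertoli list, 3 with DESeq2 and 0 to 3 without single libraries, and those called lower 23 with the Sertoli list and 6 to 11 without single libraries. Library totals gave 807 higher genes in the whole table and the Sertoli list 23 higher and 5135 lower ones, while 918 to 1747 were higher and 1281 to 1777 lower without single libraries, with 918, 1008 and 932 higher without cKO replicates 1, 2 and 3. Eif5 ranged from -0.36 to -0.27 without single libraries, and the ratio of Eif4a1 to Eif4a2 from -0.11 to 0.061. Under the Sertoli list scaling the direction turned for Eif2a (-0.34), Eif2d (-0.32), Eif3e (-0.23), Eif3f (-0.20), Eif3h (-0.36), Eif3j1 (-0.37), Eif3k (-0.39), Eif3l (-0.31), Eif4a1 (-0.29), Eif4a2 (-0.25), Eif4b (-0.31), Eif4e (-0.31), Eif4e3 (-0.16), Eif4ebp1 (-0.15), Eif4ebp2 (-0.36), Eif4g2 (-0.28), Eif4h (-0.33), Mcts1 (-0.012), Pabpc4 (-0.38), Paip1 (-0.20), Paip2 (-0.35) and Sesn2 (-0.11), and with library totals for Eif3h (-0.011), Eif3j1 (-0.028), Eif3k (-0.044), Eif4ebp2 (-0.012), Pabpc4 (-0.039) and Paip2 (-0.0090). These shifts follow from the scaling itself, since the median gene moved to -0.42 and -0.078. Without single libraries the direction turned for Eif3k (-0.017 without control replicate 1, range to 0.082), Eif3m (0.047 and 0.020 without control replicate 2 and cKO replicate 1, range from -0.050) and Pabpc1 (0.0031 and 0.0062 without control replicates 2 and 3, range from -0.063). Otherwise the cause was not tested.

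The labels do not say what the replicate numbers stand for. Deviations of same-numbered libraries from their group means correlated at -0.038, -0.0023 and 0.055, and those of other pairs at -0.074 to 0.074. These values cannot show whether libraries were paired or shared a batch. The replicate block ended 1 call among the members, that of Eif4ebp1 (limma adjusted p = 0.0522). Depth limits Eif4ebp3 and Pabpc2, which had too few reads to be tested.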

Other observations

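Grouped by conservation, the eIF3 genes had log2 fold changes on either side of 0. Subunits a, b, c, g and i form the core shared with budding yeast, and all 5 of their genes had a negative log2 fold change (median -0.16), while 6 of the 8 others had a positive one (median 0.067). This split was chosen after the values were seen, and no gene of it was called, so it carries no test. The mean log2 level of the 5 minus that of the 8 was 0.27, 0.23 and -0.036 in the control libraries and -0.065, -0.016 and -0.14 in the cKO libraries. Control replicate 3 was below the cKO replicate 2 value, so the groups overlapped, with a difference of -0.23 between group means. A second split made after the values were seen, with Eif3d moved to the first set, overlapped as well (difference -0.27).

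Denr, which was called lower, and its partner Mcts1, which was not called, had fold changes of opposite sign, a pattern also chosen after the values were seen. The log2 ratio of Denr to Mcts1 within a library was 3.97, 4.72 and 4.22 in the control libraries and 3.42, 3.55 and 3.62 in the cKO libraries. Every cKO library was below every control, with a difference of -0.78. Reads shared between Mcts1 and its retrocopy Mcts2 would enter this ratio, and their part in it was not tested.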
